A study of Homo sapiens with 12 samples.

Results

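Hsa-miR-155-5p, hsa-miR-146a-5p, hsa-miR-146b-5p, hsa-miR-210-3p and hsa-miR-210-5p are microRNAs (miRNAs) best known from inflammation and from low oxygen. They were chosen by name and are 5 of the 2656 miRNA names in the count tables. Small RNA was sequenced from AC16 and from exosomes, vesicles that cells release. The groups were exosomes labelled Ang, exosomes labelled Con, whole cells labelled Ang and whole cells labelled Con, with 3 libraries each. The headers of the Ang tables read AngII, and the labels do not spell out the name or give a dose or time. AC16 is 1 immortal human line that came from fusing adult ventricular heart cells with transformed fibroblasts, so every group shares its genetic background. No source says whether the numbered replicates were separate cultures, and p-values therefore measure only the spread between these libraries.

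MiR-155 is processed from the transcript MIR155HG and is best known as a miRNA induced in activated immune cells, where it favours inflammatory signalling. MiR-146a and miR-146b are induced through NF-kappaB and repress the adaptor proteins IRAK1 and TRAF6, which lie upstream of NF-kappaB, so they are described as a negative feedback. MiR-210 is induced by the hypoxia-inducible factor HIF-1 in most cell types, heart muscle cells included, and its 3p arm represses the iron-sulphur cluster protein ISCU and so lowers mitochondrial respiration. A miRNA hairpin gives a 5p and a 3p strand. In general 1 of them is kept by Argonaute and the other is degraded.

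The mature sequences are shown first because seed sharing, the miR-146 paralogs and the paired strands set which values can be compared. They come from the RefSeq annotation of GRCh38.p14, run 5′ to 3′, and carry the seed (bases 2 to 8, the stretch that pairs with most targets) in capitals. The last 3 are the opposite strands of the same hairpins, given for the strand comparisons.
hsa-miR-155-5p: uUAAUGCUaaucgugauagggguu
hsa-miR-146a-5p: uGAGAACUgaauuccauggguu
hsa-miR-146b-5p: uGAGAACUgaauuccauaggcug
hsa-miR-210-3p: cUGUGCGUgugacagcggcuga
hsa-miR-210-5p: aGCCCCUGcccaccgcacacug
hsa-miR-155-3p: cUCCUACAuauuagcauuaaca
hsa-miR-146a-3p: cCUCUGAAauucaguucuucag
hsa-miR-146b-3p: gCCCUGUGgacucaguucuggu

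MiR-155-5p lies at chr21:25573983-25574006 on the plus strand, within an exon of MIR155HG in GENCODE 29. MiR-146a-5p lies at chr5:160485372-160485393 on the plus strand, within an exon of the long noncoding RNA gene MIR3142HG. MiR-146b-5p lies at chr10:102436520-102436542 on the plus strand, where GENCODE 29 gave no overlapping host gene. Both miR-210 strands come from an intron of MIR210HG on the minus strand, the 3p strand at chr11:568112-568133 and the 5p strand at chr11:568150-568171. MiR-146a-5p and miR-146b-5p share their seed and are identical at 20 of the first 22 positions. Counted from the 5′ end of miR-146a-5p, the differences are G18A and U21C, and miR-146b-5p is 1 base longer. How many mismatches the authors' alignment allowed is not stated in the labels, so reads of these paralogs could have been split between the names. A mature sequence was matched to 2367 of the 2656 names, and of those only miR-7153-5p also carried the miR-146 seed. It averaged 1.0 CPM in exosomes Ang, 2.54 in exosomes Con, 23.8 in cells Ang and 21.3 in cells Con. No other matched name carried the seed of miR-155-5p or of either miR-210 strand.

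Values are counts of unique molecular identifiers (UMIs, tags that mark single molecules before amplification) and CPM, UMIs of a name per 1000000 UMIs of its library. Exosome libraries held 697049 to 1029883 UMIs and cell libraries 413513 to 528844. Heart and skeletal muscle markers were few in the AC16 cells: 7 of the 8 listed names were in the tables and summed to between 285 and 376 CPM in cells and between 57.4 and 90.6 CPM in exosomes. Libraries also stood apart within their groups. Blood cell markers (7 of 7 names in the tables) summed to 6895 CPM in cells Ang replicate 2, against 2041 and 2172 CPM in the other cells Ang libraries and 2134 to 2374 CPM in cells Con. Most of the cells Con sum was miR-223-3p (mean 1999 CPM), and the next highest, miR-142-3p, averaged 119 CPM. In exosomes the 7 markers summed to 346, 643 and 476 CPM in Ang and to 552, 1194 and 1279 CPM in Con, with replicate 1 lowest in both groups. There miR-223-3p averaged 350 CPM in Ang and 542 CPM in Con. MiR-451a, the red cell marker, was at 0 in exosomes Ang replicate 1, and up to 3 of the 7 names were at 0 in an exosome library and none in a cell library. The pattern was not confined to blood cell markers. Endothelium and liver markers summed to 4665 and 353 CPM in cells Ang replicate 2, against at most 674 and 170 CPM in any other cell library. In exosomes Con they were also lowest in replicate 1, at 130 and 39.8 CPM. MiR-155-5p and miR-146a-5p are themselves known to be abundant in white blood cells. These are bulk libraries of 1 cell line and of its exosomes, and where the marker miRNAs in them came from was not tested.

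**Figure D1:**
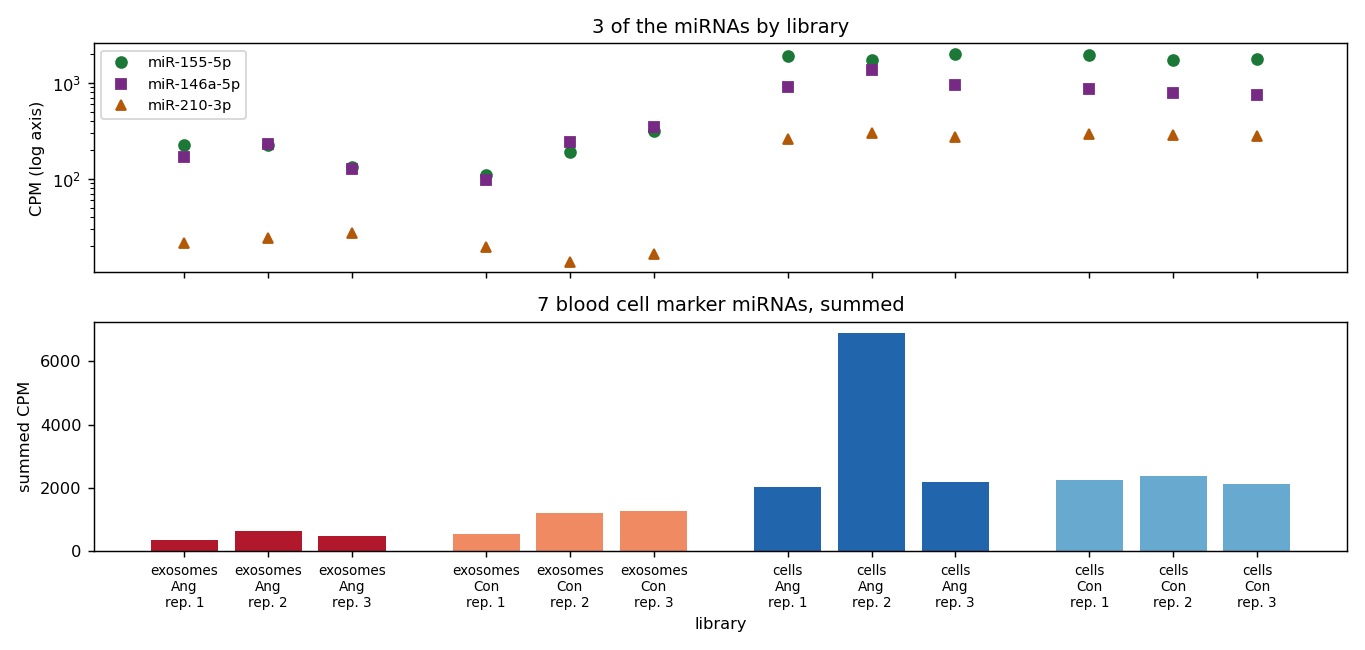
Summed blood cell marker miRNAs (lower panel, CPM, 7 names) and the levels of miR-155-5p, miR-146a-5p and miR-210-3p (upper panel, CPM, log axis) in each of the 12 libraries, Ang left of Con and exosomes left of cells. Cells Ang replicate 2 held 6895 CPM of the markers, and exosomes Con replicate 1 had the lowest miR-155-5p and miR-146a-5p of the 12 libraries.

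MiR-155-5p was the most abundant of the 5 miRNAs in cells and ranked 119 of 2656 names by mean CPM in cells Ang and 123 in cells Con. In exosomes it ranked 353 in Ang and 370 in Con. MiR-146a-5p ranked 373 in exosomes Ang, 341 in exosomes Con, 190 in cells Ang and 249 in cells Con. In exosomes these 2 miRNAs did not differ beyond their spread, with 195 ± 53.1 CPM of miR-155-5p and 174 ± 51.6 CPM of miR-146a-5p in Ang (SD, n = 3 each), and with overlapping ranges of 109 to 313 and 97.1 to 351 CPM in Con. MiR-210-3p and miR-146b-5p followed in cells, at 278 ± 19.4 and 141 ± 22.9 CPM in Ang and at 288 ± 9.32 and 119 ± 21.5 CPM in Con (SD, n = 3 each). MiR-210-5p was lowest in cells. In exosomes miR-146b-5p was lowest, at 9.31 ± 1.93 CPM in Ang and 9.44 ± 3.32 CPM in Con. All mature strands are of nearly the same length, so CPM serves here as a level per length, although ligation and capture differ between sequences. The 5 names together took 0.0307% to 0.0511% of the UMIs in exosomes Ang, 0.0247% to 0.0697% in exosomes Con, 0.324% to 0.356% in cells Ang and 0.293% to 0.326% in cells Con.

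**Figure D2:**
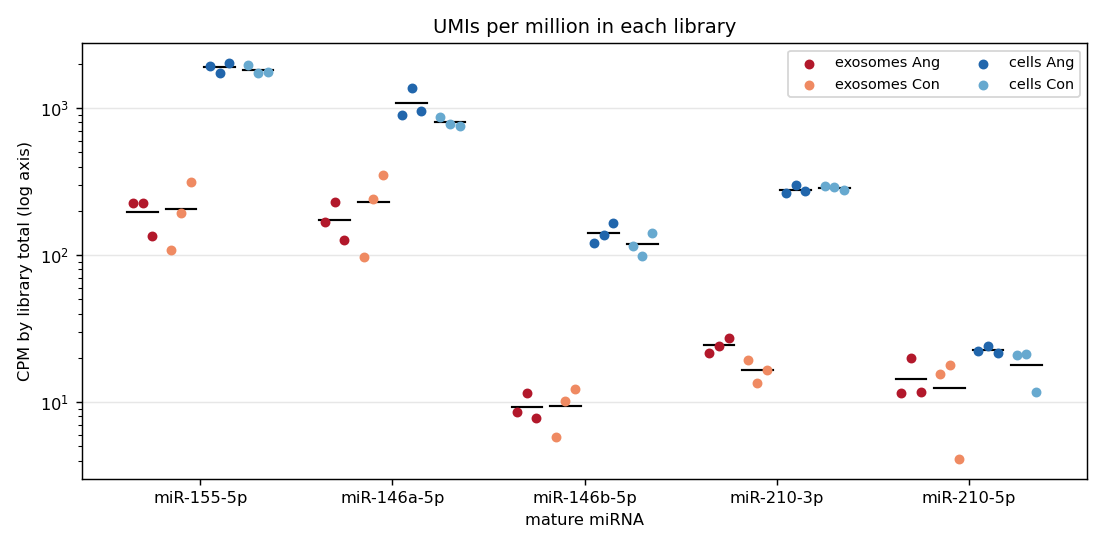
Level of each of the 5 miRNAs in every library (CPM, log scale, points are libraries), by group, exosomes left of cells and Ang left of Con. Short lines are group means. MiR-155-5p, miR-146a-5p, miR-146b-5p and miR-210-3p lie lower in every exosome library than in any cell library on the CPM scale, and miR-146a-5p spreads from 97.1 to 351 CPM within exosomes Con.

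In exosomes, 1 of the 5 miRNAs, miR-210-3p, differed between Ang and Con past the threshold. It had 21.5, 24.0 and 27.4 CPM in exosomes Ang (15, 23 and 28 UMIs), against 19.4, 13.5 and 16.5 CPM in exosomes Con (20, 12 and 16 UMIs). Every Ang library lay above every Con library, and the counts behind them were small. The log2 fold change was 0.73 (1.65-fold higher in Ang, SE 0.223, 95% interval 0.23 to 1.23, adjusted p = 0.0303 by edgeR's quasi-likelihood test with Benjamini-Hochberg adjustment over 1199 names). Of all names tested, 34.0% passed in this comparison (17.0% higher and 17.0% lower) and 52.4% did not overlap between the groups. With 4 miRNAs tested, 1 call is near the 34.0% of all names and is no result about these miRNAs as a set. The call was kept without exosomes Con replicate 1 and lost without each of the other 5 libraries (adjusted p 0.0505 to 0.125), and it was lost with library totals (0.0803), with DESeq2 (0.27) and with no count filter (0.0808). The median of all names moved by −0.17 on the log2 scale with library totals. Less that median, miR-210-3p stood at 0.78 under either scaling, an agreement that follows because the scaling moves all names nearly alike.

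The opposite strand, miR-210-5p, had 11.5, 19.8 and 11.7 CPM in exosomes Ang and 15.5, 18.0 and 4.12 CPM in exosomes Con. The groups overlapped, and the log2 fold change of 0.38 had an interval of −0.64 to 1.40 (adjusted p = 0.585). MiR-155-5p had 225, 227 and 134 CPM in exosomes Ang and 109, 192 and 313 CPM in exosomes Con. Its Con libraries lay both below and above all Ang libraries, and the log2 fold change was 0.11 (−0.60 to 0.82, adjusted p = 0.847). MiR-146a-5p had 168, 229 and 126 CPM in exosomes Ang and 97.1, 240 and 351 CPM in exosomes Con, the same order of Con libraries as for miR-155-5p. Its log2 fold change was −0.21 (−1.03 to 0.60, adjusted p = 0.717), and without Con replicate 1 it was −0.57 (adjusted p = 0.0399). MiR-146b-5p had 6, 11 and 8 UMIs in exosomes Ang and 6, 9 and 12 UMIs in exosomes Con and did not reach the count filter, so it was not tested there.

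The spread of miR-155-5p and miR-146a-5p between exosome libraries was well above counting error. In exosomes Con their coefficients of variation were 50.1% and 55.5%, where counting alone gives 7.15% and 6.77% and the median of names of at least 10 CPM was 11.7%. In exosomes Ang they were 27.2% and 29.6%, against a median of 11.5%. MiR-210-3p varied by 12.1% in exosomes Ang and 18.0% in exosomes Con, less than its counting error of 21.3% and 25.0%. Names off the blood cell list also spread in exosomes Con, such as miR-103a-3p (105 to 277 CPM) and miR-26b-5p (94.2 to 252 CPM). Others did not, such as miR-27b-3p (68.9 to 78.2 CPM). Over names with at least 10 UMIs in a pair, exosomes Con replicate 1 stood apart. Its chi-square per degree of freedom was 6.57 against replicate 2 and 10.6 against replicate 3, where replicates 2 and 3 gave 1.91. The summed blood cell markers were also lowest in Con replicate 1 and highest in Con replicate 3. Their part in the miR-155-5p and miR-146a-5p values was not tested.

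**Figure D3:**
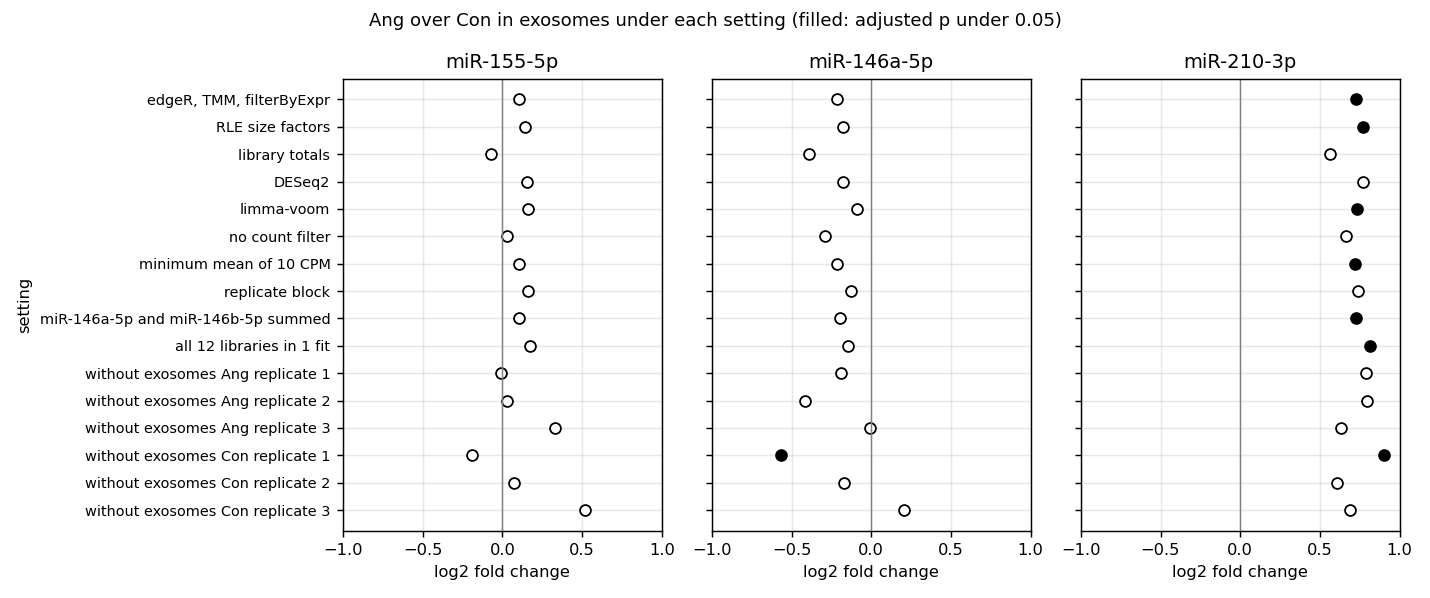
Log2 fold change of Ang over Con in exosomes for miR-155-5p, miR-146a-5p and miR-210-3p, under the edgeR test and each alternative. Points are estimates, and filled points passed an adjusted p of 0.05. MiR-210-3p stayed above 0, between 0.56 and 0.90, and passed in 6 of 15 alternatives, while miR-155-5p and miR-146a-5p each changed sign in at least 1 of theirs.

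In whole cells, none of the 5 miRNAs passed the threshold for Ang against Con by edgeR (1 had an unadjusted p under 0.05), nor by DESeq2 or limma-voom. Of all 1630 names tested, 6.56% passed, 2.76% higher and 3.80% lower in Ang. MiR-146a-5p came nearest, with 899, 1378 and 963 CPM in cells Ang and 866, 783 and 757 CPM in cells Con. All Ang libraries lay above all Con libraries, and the largest gap was that of Ang replicate 2, the library with the high blood cell markers. The log2 fold change was 0.41 (1.33-fold, SE 0.134, 95% interval 0.13 to 0.70, unadjusted p = 0.00707, adjusted p = 0.0873 by edgeR). Without Ang replicate 2 it was 0.19 (adjusted p = 0.356), and without Ang replicate 1 it was 0.53 (adjusted p = 0.0347). In Ang replicate 2 miR-142-3p, a marker of blood-forming cells, stood at 2041 CPM, against 99.9 and 105 CPM in the other Ang libraries. The part of that library's blood cell markers in the miR-146a-5p value was not tested beyond leaving the library out.

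MiR-155-5p had 1933, 1722 and 2022 CPM in cells Ang and 1965, 1740 and 1766 CPM in cells Con. The groups overlapped, Ang replicate 2 was the lowest of the 6, and the log2 fold change was 0.04 (SE 0.0792, adjusted p = 0.868). MiR-146b-5p had 120, 138 and 166 CPM in cells Ang and 115, 98.8 and 141 CPM in cells Con, overlapping (log2 fold change 0.25, SE 0.169, adjusted p = 0.466). MiR-210-3p had 263, 300 and 271 CPM in cells Ang and 297, 289 and 278 CPM in cells Con. These overlapped within a narrow range, with a log2 fold change of −0.07 (SE 0.114, adjusted p = 0.825). MiR-210-5p had 11, 10 and 11 UMIs in cells Ang and 11, 11 and 5 UMIs in cells Con (log2 fold change 0.28, SE 0.349, adjusted p = 0.756). Its CPM values did not overlap between the groups. The same held for miR-146a-5p, which makes 2 of 5, against 22.4% of all names tested.

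The change of miR-210-3p with Ang differed between exosomes and cells. The log2 Ang over Con change of miR-210-3p was higher in exosomes than in cells by 0.94 (SE 0.237, 95% interval 0.44 to 1.44, adjusted p = 0.0110 for the interaction term in edgeR, fitted to all 12 libraries). Of the 1835 names tested 15.1% passed this test (9.97% with a higher and 5.18% with a lower change in exosomes). Leaving out miR-146b-5p, only miR-210-3p of these miRNAs did. The call did not pass with library totals (0.62, adjusted p = 0.123), without exosomes Ang replicate 3 (adjusted p = 0.0889) or without exosomes Con replicate 2 (adjusted p = 0.0731). The differences were 0.19 for miR-155-5p (adjusted p = 0.820), −0.50 for miR-146a-5p (0.523) and 0.24 for miR-210-5p (0.878). MiR-146b-5p passed the count filter only through its cell libraries, so its fitted difference of 0.05 is a description. For miR-146a-5p the difference was −0.91 without exosomes Con replicate 1 (adjusted p = 0.0309).

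**Figure D4:**
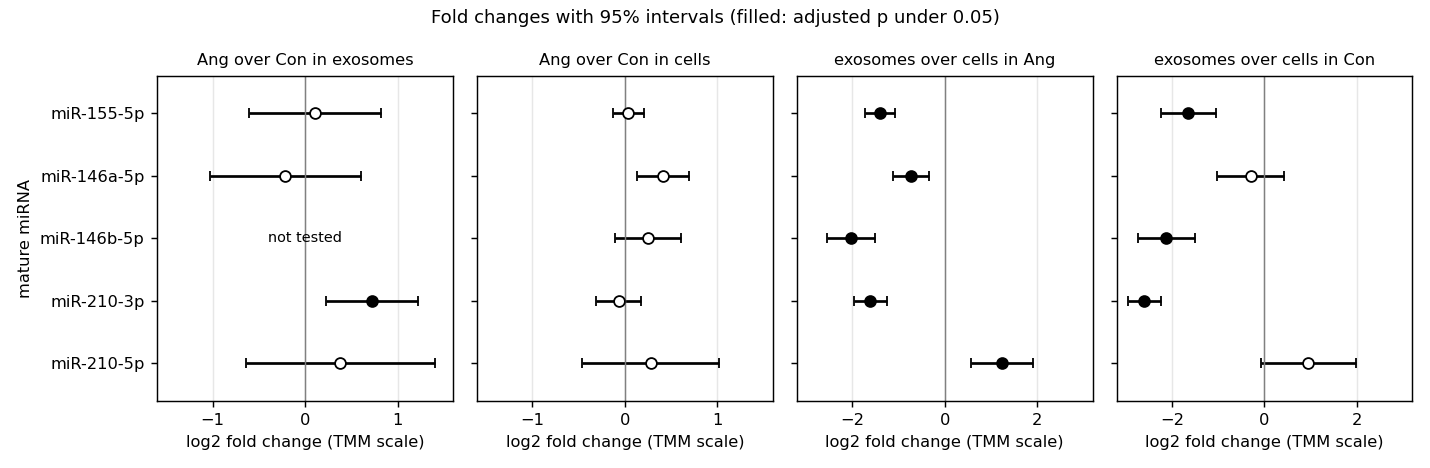
Log2 fold changes of the 5 miRNAs with 95% intervals from edgeR (TMM scaling) for Ang over Con in exosomes and in cells and for exosomes over cells in Ang and in Con, with filled points past the threshold. The miR-210-3p interval lies above 0 for Ang over Con in exosomes and spans 0 in cells. The miR-210-5p estimates lie above 0 for exosomes over cells on this scale, with an interval that spans 0 in Con. Scaled by library totals, its estimates are −0.63 in Ang and −0.55 in Con.

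Set against whole cells, exosomes held less of miR-155-5p and miR-210-3p in both treatments. Cell RNA and exosomal RNA came from different kits, so compartment and extraction cannot be told apart in the exosome-to-cell folds and shares below. The scaling also moves the folds. The TMM factors were 0.496 to 0.602 in exosome libraries and 1.75 to 1.93 in cell libraries, and with library totals in their place the median log2 fold change of all names moved by −1.88 in Ang and by −1.51 in Con. With TMM scaling 83.3% of names passed in Ang (38.2% higher and 45.1% lower in exosomes) and 83.3% in Con (39.2% higher and 44.2% lower), against 4 of 4 and 2 of 4 of these miRNAs, leaving out miR-146b-5p. By CPM all 5 did not overlap between exosomes and cells in Ang, against 91.0% of names, and 4 of 5 in Con, against 89.1%. MiR-155-5p was 2.63-fold lower in exosomes Ang than in cells Ang (log2 fold change −1.40, SE 0.154, adjusted p = 2.33e-07) and 3.13-fold lower in exosomes Con than in cells Con (adjusted p = 0.000192). MiR-146b-5p had 6 to 12 UMIs in exosome libraries and passed the count filter only through its cell libraries, so its fitted values are a description. They were 4.07-fold lower in exosomes in Ang and 4.36-fold lower in Con.

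MiR-210-3p was 3.04-fold lower in exosomes than in cells in Ang (SE 0.171 on the log2 scale, adjusted p = 1.6e-07) and 6.05-fold lower in Con (log2 fold change −2.60, SE 0.158, adjusted p = 5.93e-08). Less the median of all names, these log2 differences were −1.29 in Ang and −2.33 in Con under both TMM and library totals. A change of scaling moves all names nearly alike, so that agreement was set in advance. MiR-146a-5p was 1.67-fold lower in Ang (log2 fold change −0.74, SE 0.183, adjusted p = 0.00139). In Con its log2 fold change of −0.30 did not pass (SE 0.323, adjusted p = 0.401), and without exosomes Con replicate 3 it was −0.83 (adjusted p = 0.00945). Less the median of all names it stood at −0.43 in Ang and −0.03 in Con, the nearest to the median of the 5.

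MiR-210-5p stood on the other side. It had 11.5, 19.8 and 11.7 CPM in exosomes Ang against 22.4, 24.2 and 21.4 CPM in cells Ang, lower in every exosome library, but TMM scaling gave a log2 fold change of 1.24 (SE 0.315, adjusted p = 0.00164) and library totals gave −0.63. Its direction therefore depends on the scaling. Less the median of all names it stood at 1.55 with TMM and 1.57 with library totals in Ang, and at 1.21 and 1.22 in Con, where the TMM value of 0.94 did not pass (adjusted p = 0.0792). Relative to the median name it was thus higher in exosomes, while the other 4 were lower in Ang. A change of scaling moves all names nearly alike, so the agreement of both scalings here is no separate support.

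Shares of the strands of 1 hairpin do not depend on the scaling of libraries. The hairpins are shown with both mature strands in capitals, to place the strands that were counted (RefSeq, GRCh38.p14).
MIR210 at chr11:568089-568198, minus strand: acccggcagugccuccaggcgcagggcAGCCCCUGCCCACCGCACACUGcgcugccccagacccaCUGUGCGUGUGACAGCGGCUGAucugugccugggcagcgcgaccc
MIR146A at chr5:160485352-160485450, plus strand: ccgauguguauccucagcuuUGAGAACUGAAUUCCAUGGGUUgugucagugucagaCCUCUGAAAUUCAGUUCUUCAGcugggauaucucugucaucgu
MIR146B at chr10:102436512-102436584, plus strand: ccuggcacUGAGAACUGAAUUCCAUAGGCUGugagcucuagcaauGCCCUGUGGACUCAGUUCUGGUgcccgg

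MiR-210-3p, the strand known to act on ISCU, made up 65.2%, 54.8% and 70.0% of both miR-210 strands in exosomes Ang, against 92.1%, 92.5% and 92.7% in cells Ang. It made up 55.6%, 42.9% and 80.0% in exosomes Con, against 93.4%, 93.1% and 95.9% in cells Con. Every exosome library was below every cell library. The exact 95% binomial interval ran from 24.5% to 62.8% in exosomes Con replicate 2, the lowest library. In exosomes Con replicate 3, the highest exosome library (16 of 20 UMIs), it ran from 56.3% to 94.3%. That range overlaps the interval of every cell library, such as 86.4% to 96.0% in cells Ang replicate 1, the lowest cell library. The exosome shares rest on 20 to 42 UMIs a library, and intervals cover counting error only. The mean difference, exosomes minus cells, was −29.1 percentage points in Ang and −34.7 in Con (exact two-sided permutation p = 0.1 each, the smallest that 3 against 3 allows, adjusted p = 0.24 over 12 tests of shares). Between exosomes Ang and exosomes Con the shares of 63.3% ± 7.79 and 59.5% ± 18.9 overlapped (SD, n = 3 each, exact p = 0.9).

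**Figure D5:**
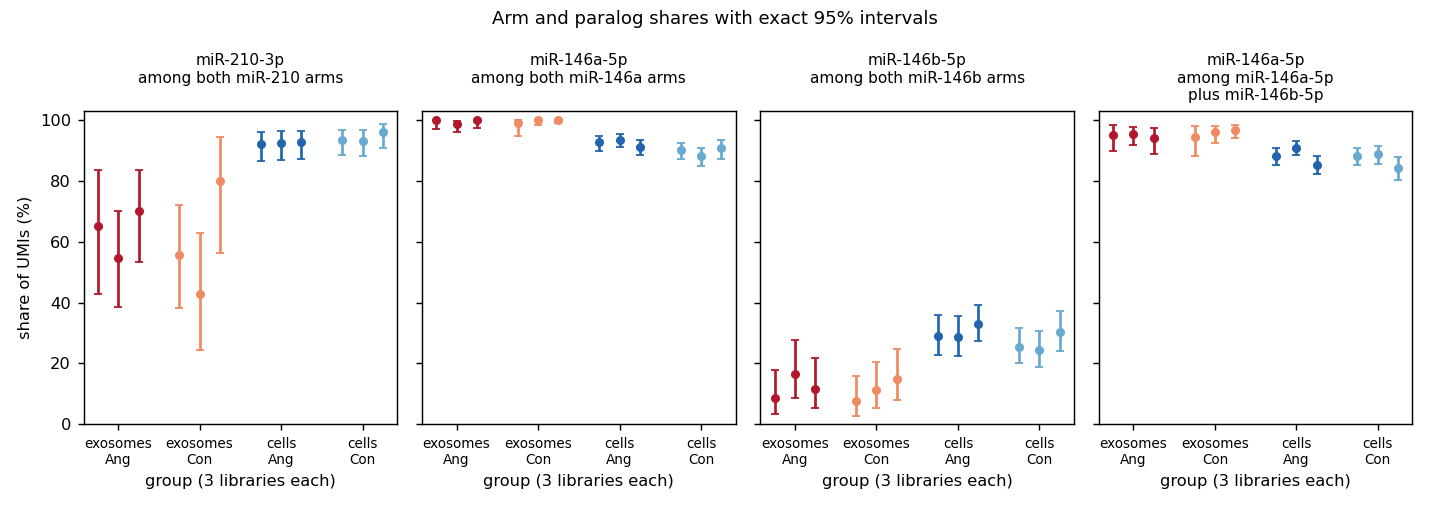
Shares of UMIs (percent) in each library, by panel miR-210-3p among both miR-210 strands, miR-146a-5p and miR-146b-5p among both strands of their own hairpins, and miR-146a-5p among miR-146a-5p plus miR-146b-5p. Bars are exact 95% binomial intervals. MiR-210-3p shares run from 42.9% to 80.0% in exosomes and from 92.1% to 95.9% in cells.

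The miR-146 hairpins did not share a pattern. MiR-146a-5p was 98.6% to 100% of both miR-146a strands in exosomes and 88.0% to 93.4% in cells. Its opposite strand, miR-146a-3p, had 0, 3 and 0 UMIs in exosomes Ang against 35, 40 and 48 in cells Ang, and 1, 0 and 0 in exosomes Con against 51, 55 and 33 in cells Con. With TMM scaling, the scale of the other folds, it was 20.9-fold lower in exosomes Ang than in cells Ang (counting interval 6.99 to 102.8), and by library totals 77.5-fold (25.9 to 381). With 1 UMI in exosomes Con it was 92.1-fold lower than in cells Con with TMM scaling (16.3 to 3665). For miR-146b the 3p strand was the more abundant, with 90.4, 57.4 and 58.7 CPM of miR-146b-3p in exosomes Ang against 294, 341 and 337 CPM in cells Ang, and 69.9, 78.8 and 70.0 CPM in exosomes Con against 337, 306 and 325 CPM in cells Con. MiR-146b-5p made up 8.7% to 16.7% of both strands in exosomes Ang, 7.7% to 15.0% in exosomes Con, 28.8% to 33.0% in cells Ang and 24.4% to 30.3% in cells Con, with no overlap between exosomes and cells. These miR-146 strand shares were computed after the values were seen and were not tested. MiR-155-3p had at most 5 UMIs in any library, and miR-155-5p made up nearly all of its hairpin's reads in every group.

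Between the paralogs, miR-146a-5p made up 94.8% ± 0.585 of miR-146a-5p plus miR-146b-5p in exosomes Ang and 88.1% ± 2.80 in cells Ang (SD, n = 3 each). The share was 95.6% ± 1.16 in exosomes Con and 87.1% ± 2.48 in cells Con. The exosome libraries were above the cell libraries in both treatments, by 6.69 and 8.53 percentage points (exact two-sided permutation p = 0.1 each, adjusted p = 0.24). Ang and Con overlapped in exosomes and in cells.

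Other miRNAs described in inflammation or low oxygen were read beside them, from lists chosen with earlier results of these data known. In exosomes, 2 of 14 tested inflammation miRNAs fell in Ang and none rose by edgeR, against 34.0% of all names called: miR-181b-5p, which dampens NF-kappaB signalling in endothelium, by 0.50 on the log2 scale (adjusted p = 0.0369), and miR-223-3p, a myeloid miRNA that is also on the blood cell list, by 0.45 (adjusted p = 0.0455). None of the 14 passed with RLE size factors or without Ang replicate 2, Ang replicate 3 or Con replicate 2, and without Con replicate 3 none fell and 2 rose. Of 16 tested hypoxia miRNAs 3 rose, namely miR-27a-3p (0.71, adjusted p = 0.0247), miR-27b-3p (0.59, adjusted p = 0.00846) and miR-181c-5p (0.49, adjusted p = 0.00691). In the same list miR-382-5p fell by 1.35 (adjusted p = 2.33e-06), and miR-181b-5p is on both lists. With library totals 1 of the 16 rose and 2 fell, and without Con replicate 1 3 rose and 4 fell. The list medians were 0.03 and 0.07 on the log2 scale, against −0.05 for all names.

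In cells, 0 of 16 tested inflammation miRNAs and 0 of 17 tested hypoxia miRNAs passed by edgeR, DESeq2 or limma-voom (2 and 1 had an unadjusted edgeR p under 0.05), where 6.56% of all names passed by edgeR, a share that gives about 1 call in a list of this size. The lists had medians of 0.03 and 0.04 against 0.02 for all names. The lowest adjusted p values were 0.0673 for miR-9-5p, induced by NF-kappaB in white blood cells, and 0.133 for miR-26b-5p. For exosomes over cells in Ang, 13 of 17 inflammation miRNAs and 13 of 18 hypoxia miRNAs were lower in exosomes and 2 and 4 higher, with medians of −1.65 and −1.73 against −0.31 for all names. Over all names 83.3% passed (45.1% lower and 38.2% higher). That is close to the lists' totals in either direction, while a larger part of each list was lower and a smaller part higher. Of the list members, 3 inflammation and 2 hypoxia miRNAs were not tested within exosomes and passed the filter here through their cell libraries, and 1 of each list (miR-187-3p and miR-200b-3p) through its exosome libraries. The counts and medians include these names, so they are a description. In Con, 12 of each were lower and 3 and 4 higher, with medians of −1.72 and −2.10 against −0.27, and 83.3% of all names passed (44.2% lower and 39.2% higher). The Con counts and medians include the same names and are likewise a description. The difference between the Ang changes in exosomes and in cells passed for 4 higher and 1 lower of 18 hypoxia miRNAs, among them miR-181c-5p (0.73) and miR-27b-3p (0.70), and for 1 lower of 17 inflammation miRNAs, miR-9-5p (−1.35), against 15.1% of all names (9.97% higher and 5.18% lower). No inflammation miRNA passed without exosomes Ang replicate 2, cells Ang replicate 1, cells Ang replicate 2, cells Con replicate 1 or cells Con replicate 3. Of the 4 hypoxia miRNAs with a higher change, 1 was not tested within exosomes and passed the filter through its cell libraries. With library totals none of the 18 passed as higher, and with a library left out 2 to 4 did.

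Across the 12 libraries, the names whose levels ran most like each miRNA were found by Pearson's r of log2(CPM + 1). This is a description, since the gap between exosome and cell libraries sets most of it. MiR-155-5p ran most like miR-224-5p (r = 0.9986), miR-146a-5p most like miR-342-3p (r = 0.9896), miR-146b-5p most like miR-26b-5p (r = 0.9968) and miR-210-3p most like miR-6837-3p (r = 0.9987). For miR-210-5p the highest was 0.7827, with miR-6887-5p.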

How the data were processed

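Small RNA of AC16 cells and their exosomes was sequenced in 12 libraries. Per the labels' protocols, cell RNA came from the miRNeasy Micro kit, exosomal RNA from the exoRNeasy Maxi kit, and the QIAseq miRNA kit was used for library construction. The deposited tables give 1 raw UMI count for each miRNA name, per the file headers. The submitters' processing notes name cutadapt and the build GRCh38 and, in the form used here, no aligner or counter. The exosome files list 2580 of the 2656 names, and the other 76 were taken as 0. A floor of 3 counts is 2.91 to 7.25 CPM.

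The members and lists were chosen with earlier results of these data known. Each comparison was fitted over all names with edgeR 4.0.16 in R 4.3.3 (filterByExpr, TMM, quasi-likelihood test, robust off, two-sided, Benjamini-Hochberg over all tested names, adjusted p under 0.05). Comparisons of 2 groups used their 6 libraries and the interaction all 12. The test was also run on simulated counts in which no library stood apart. That run does not cover libraries such as exosomes Con replicate 1. An adjusted p with no other name is from the edgeR fit. Named were the 5 members, their opposite strands, seed sharers of at least 10 CPM, the names most like each member, and up to 4 list members with the lowest p. Alternatives were RLE size factors, library totals, DESeq2 1.42.0, voom in limma 3.58.1, a mean of at least 10 CPM, leaving out the count filter, a block for the replicate number, all 12 libraries in 1 fit, summed miR-146 paralogs and each library left out. Added after seeing the data was the interaction without cells Ang replicate 2 and exosomes Con replicate 1 together.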

Additional observations from a re-analysis of the deposited data

Results flagged for a closer look

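The Ang change of hsa-miR-210-3p differed between exosomes and cells, by 0.94 on the log2 scale in the edgeR interaction test (adjusted p = 0.0110). In separate fits to 6 libraries each, the change was 0.73 in exosomes and −0.07 in cells. The interaction was fitted to all 12 libraries with its own scaling, so it is not the plain difference of those changes. The exosome values rest on 12 to 28 UMIs a library.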

How the results depend on the processing

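Counts of the 5 miRNAs past the threshold, miR-146b-5p included where tested, moved as follows. For Ang over Con in exosomes (1), it was 0 with library totals, DESeq2, no count filter or a replicate block, and 0 to 2 with a library left out. In cells (0), it was 1 with the replicate block, through miR-146a-5p (0.39, adjusted p = 0.0135), and 0 to 1 with a library left out. For exosomes over cells in Con (3) it was 3 to 5 with a library left out. For the interaction (1) it was 0 with library totals, 0 to 2 with a library left out, and 2 without cells Ang replicate 2 and exosomes Con replicate 1. The labels do not state whether same-numbered libraries belong together. Correlations of the libraries' deviations from their group means ran from −0.0533 to 0.12 for the same number and from −0.138 to 0.0887 for different numbers. With 3 libraries a group, values this low do not decide whether the numbers pair the samples. Counts of all names in cells (107) were 70, 38 and 38 without Ang replicate 1, Con replicate 2 or Con replicate 3.

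Log2 values changed sign with library totals for miR-155-5p in exosomes (−0.0733), for miR-210-5p over cells (−0.63 in Ang, −0.55 in Con) and, in the interaction, for miR-155-5p (−0.13), miR-146b-5p (−0.27) and miR-210-5p (−0.0757). Library totals moved the median of all names by −0.17 in exosomes, by −1.88 and −1.51 over cells and by −0.31 in the interaction, and less that median miR-155-5p in exosomes stood at 0.14 (0.16 with TMM) and miR-210-5p over cells at 1.57 in Ang (1.55 with TMM). In cells miR-155-5p was −0.0166 with all 12 libraries in 1 fit. Without the 2 doubted libraries the interaction was −0.20 for miR-155-5p and −0.25 for miR-146b-5p. With a library left out, exosome values ran from −0.19 to 0.52 (miR-155-5p), −0.57 to 0.21 (miR-146a-5p) and −0.0627 to 0.69 (miR-210-5p). Those of miR-155-5p in cells ran from −0.0129 to 0.0999, and of miR-146a-5p for exosomes over cells in Con from −0.83 to 0.0794. In the interaction they ran from −0.16 to 0.63 (miR-155-5p), −0.25 to 0.29 (miR-146b-5p) and −0.19 to 0.52 (miR-210-5p). Share differences in percentage points ran from −4.45 to 14.1 (miR-210-3p, Ang minus Con in exosomes), −0.208 to 0.297 (miR-155-5p, exosomes minus cells in Ang) and −0.376 to 2.46 (miR-146a-5p of the paralogs, Ang minus Con in cells). For settings other than library totals the cause was not tested. Depth limits miR-146b-5p, miR-210-3p and miR-210-5p in exosomes, each under 30 UMIs a library.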
